A study of Homo sapiens with 6 samples.

Results

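The 10 genes described here encode early-response transcription factors of the EGR, NR4A and KLF families: EGR1, EGR2, EGR3, NR4A1, NR4A2, NR4A3, KLF2, KLF4, KLF6 and KLF10. They were chosen by name, with the results of the treatment known, and each matched 1 of the 29435 rows of the deposited table. The RNA came from cells that the labels call HepG2, a human hepatocellular carcinoma line, after 4 h with saikosaponin A at 20 µM (SsA, a triterpenoid saponin from Bupleurum root) or with its vehicle DMSO for 4 h. Each group has 3 libraries, numbered 1 to 3 in the labels. The labels name no genetic change in either group, and all cells grew in DMEM with fetal bovine serum. Because the choice used the contrast of SsA with DMSO, the differences between the groups in these 10 genes are a description and carry no test.

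Genes of these families are switched on within minutes to hours of a growth factor, stress or calcium signal without new protein synthesis, and their products then regulate later genes. EGR factors bind GC-rich sites through zinc fingers and are held back by the NAB corepressors, one of which EGR1 itself induces. NR4A factors are orphan nuclear receptors that act without a known ligand in a classical pocket, as monomers, as dimers or with RXR. KLF factors bind GC boxes and CACCC sites. KLF2 and KLF4 are best known from endothelium and as ERK5 and MEF2 targets, KLF6 from liver injury and as a tumour suppressor gene, and KLF10 as an early TGF-β-induced gene. In liver, EGR1, NR4A1 and KLF6 are known as fast responders to injury and to hormones of fasting.

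Promoter windows of EGR1, EGR2 and KLF2, the genes with the largest differences among those with a window here, are shown for their motifs. The EGR1 window and 1 of the EGR2 windows hold CArG boxes, a motif of early gene induction, and that EGR2 window is shown. The KLF2 window holds several GC boxes and no CArG box. EGR2 windows at other starts, not shown, hold GC boxes and no CArG box. The CArG box is the site of serum response factor (SRF), and the GC box (GGGCGG or its reverse complement) that of SP and KLF factors. Bases are from RefSeq, GRCh38.p14, 5′ to 3′ on the gene's strand, upstream of the annotated start. Capitals mark CArG boxes in EGR1 and EGR2 and GC boxes in KLF2. The EGR1 stretch is chr5:138465229-138465478 (plus strand), the EGR2 stretch is chr10:62816367-62816616 (minus strand, before the start at 62816366) and the KLF2 stretch is chr19:16324576-16324816 (plus strand).
EGR1: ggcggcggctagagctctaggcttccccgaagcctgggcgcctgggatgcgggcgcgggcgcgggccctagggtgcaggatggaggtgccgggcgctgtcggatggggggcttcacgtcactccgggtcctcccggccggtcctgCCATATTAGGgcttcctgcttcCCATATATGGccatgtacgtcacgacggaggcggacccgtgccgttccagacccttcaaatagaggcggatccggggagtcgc
EGR2: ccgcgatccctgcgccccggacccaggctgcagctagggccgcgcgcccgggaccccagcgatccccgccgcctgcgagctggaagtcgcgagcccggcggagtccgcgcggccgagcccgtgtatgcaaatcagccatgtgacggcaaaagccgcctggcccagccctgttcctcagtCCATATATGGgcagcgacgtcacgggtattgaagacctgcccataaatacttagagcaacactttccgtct
KLF2: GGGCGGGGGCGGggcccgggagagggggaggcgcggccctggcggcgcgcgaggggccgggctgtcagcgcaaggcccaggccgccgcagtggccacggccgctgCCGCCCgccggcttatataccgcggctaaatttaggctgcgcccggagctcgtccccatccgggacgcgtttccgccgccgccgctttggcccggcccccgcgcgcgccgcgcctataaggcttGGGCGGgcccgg
Counting the base before the start as -1, EGR1 has CArG boxes that begin at -105 and -83, CCATATTAGG and CCATATATGG. EGR2 has 1 that begins at -71, with the same letters as the second of EGR1, CCATATATGG.

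Windows from 250 bases before to 50 after a start were searched on both strands for 6 motifs. There were 10 such windows for 7 of the genes. Those of NR4A1 lie at the starts 52022832 and 52037715, and any start further into that gene was not searched. NR4A2, EGR3 and KLF10 were not analysed for motifs here. A CArG box was in 2 of the 10 windows, the EGR1 and EGR2 windows printed above, and in 1.29% of the 35116 windows of the RefSeq table. The GC box was in 7 of the 10 and in 45.0% of all windows. It was in 0 windows of EGR1 and in 1 window each of KLF2, KLF4 and KLF6. The EGR2 windows at the starts 62819167 and 62818775, not printed, held 2 and 4 GC boxes and 0 CArG boxes. The printed EGR2 window held 0 GC boxes. The cyclic AMP response element (TGACGTCA), the AP-1 site (TGANTCA), the NR4A monomer site NBRE (AAAGGTCA) and the EGR site (GCGTGGGCG, which shares letters with the GC box) were in 0 of the 10, against 1.85%, 7.71%, 1.22% and 0.795% of all windows. Such matches describe letters and not binding.

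Total counts were 57768359 to 74912492 per library. The labels do not say whether replicates were separate cultures, so errors and p-values reflect the spread among these libraries alone, and in bulk RNA fewer expressing cells and less RNA per cell cannot be told apart. DMSO 3 and SsA 1 stood apart from the rest, with 14.9% and 18.8% of counts in mitochondrially encoded genes against 6.19 to 8.28% in the other 4. Of 13 hepatocyte markers, the defining transcripts of the labelled cell type, 7 had a row, and the other 6, ALB and AFP among them, were not analysed here. All 7 were below 0.1 FPKM (fragments scaled to transcript length and library size), and their sum was 0.0184 to 0.0734 FPKM per library. Of the markers of other cells, KRT8 and KRT18 of 5 epithelial genes, 4 of 6 fibroblast genes (COL1A1, COL3A1, PDGFRB and ACTA2), 0 of 4 endothelial and 0 of 2 leukocyte genes reached a mean of 1 FPKM. In all, 11427 genes with at least 1 FPKM in at least 3 libraries entered the quasi-likelihood fit of edgeR. Of these, 53.8% were called at an adjusted p under 0.05 (Benjamini-Hochberg), 25.9% as higher after SsA and 27.9% as lower. The median log2 fold change of all tested genes was 0.03, with quartiles of -0.38 and 0.38.

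EGR1, NR4A1 and NR4A2 were the genes of the 10 called higher after SsA, and 0 were called lower. Of these 3, EGR1 differed most, 22.1-fold, while NR4A1 and NR4A2 were 2.23-fold and 2.13-fold higher. NR4A3, KLF4, KLF6 and KLF10 were tested and not called, with log2 fold changes between -0.37 and 0.38. EGR2, EGR3 and KLF2 stayed under the expression filter, so that 7 of the 10 were tested, and EGR1 passed that filter only through the SsA libraries, where it is high. The 3 of 7 called higher stand beside 25.9% of all tested genes, and since the genes were chosen on this contrast nothing is read from that. In CPM (counts scaled to the TMM-adjusted library size) the SsA libraries all lay above the DMSO libraries in 6 of the 10 genes, EGR1, EGR2, EGR3, NR4A1, NR4A2 and KLF2, and below them in 0. Of the 7 tested genes alone, the groups were apart with SsA higher in 3 and with SsA lower in 0. Among all tested genes the groups were apart in this way, with SsA higher, in 30.4% and, with SsA lower, in 32.4%. EGR2, EGR3 and KLF2, under the filter, are not among the genes of these shares. The median log2 fold change of the 7 tested genes was 0.38.

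**Figure D1:**
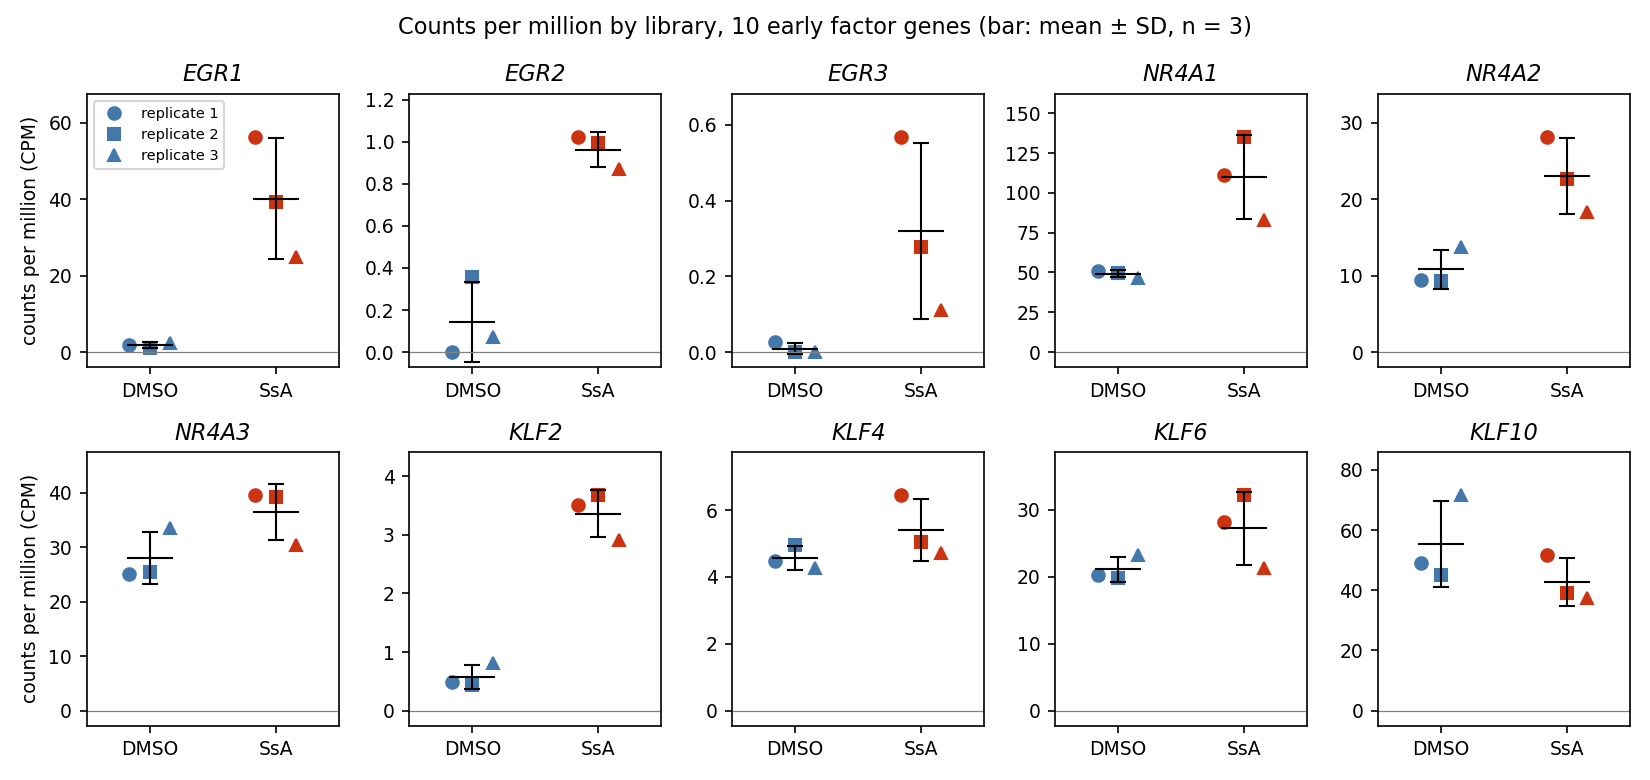
CPM (y axis, linear, one scale per gene) of the 10 genes in the 3 DMSO and 3 SsA libraries (x axis). Points are libraries, bars the mean ± SD (n = 3). The groups do not overlap in EGR1, EGR2, EGR3, NR4A1, NR4A2 and KLF2, and SsA 3 is the lowest SsA library in all 10.

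EGR1, a zinc finger factor that couples growth factor and stress signals to later genes, was almost silent in DMSO and well expressed after SsA. It lies at chr5:138465479-138469303 (GRCh38, plus strand). Its level was 1.97, 1.01 and 2.47 CPM in DMSO 1, 2 and 3, and 56.4, 39.2 and 24.997 CPM in SsA 1, 2 and 3. Every SsA library was at least 10 times above the highest DMSO library, but the SsA libraries themselves differed 2.26-fold. The means were 1.82 ± 0.744 and 40.2 ± 15.7 CPM (SD, n = 3), and the log2 fold change was 4.49 ± 0.42 (SE). Only 2 of the 11427 tested genes had a larger one. As EGR1 was chosen on this contrast and passed the filter only through its SsA libraries, nothing is read from this rank. In FPKM, EGR1 went from 0.521 ± 0.187 to 10.4 ± 3.46.

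The other EGR genes showed the same direction at very low levels. EGR2, known from Schwann cell myelination, lies at chr10:62811996-62919900 on the minus strand. It had 0, 29 and 4 counts in DMSO 1, 2 and 3 and 54, 68 and 55 counts in SsA 1, 2 and 3. The DMSO libraries were thus uneven and the SsA libraries alike. In CPM the highest DMSO library had 0.357 and the lowest SsA library 0.869. Over the summed counts (33 against 177) the ratio of SsA to DMSO was 6.30, with an exact 95% interval of 4.33 to 9.43 that covers counting error only. In the fit without the expression filter, its log2 fold change was 2.76 ± 0.99 (SE), and 4.90 without DMSO 2.

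EGR3, another zinc finger factor of the family, had 2, 0 and 0 counts in DMSO and 30, 19 and 7 in SsA 1, 2 and 3. All SsA libraries were above all DMSO libraries, but each was below 0.6 CPM. The ratio of the summed counts (2 against 56) was 32.9, with an exact 95% counting interval of 8.69 to 278. EGR3 overlaps a row on the opposite strand, AC055854.1, and the sources used here do not give whether the counting used the strand. EGR4, a family gene outside the 10, had 0 counts in DMSO and 4, 0 and 8 counts in SsA 1, 2 and 3. With 0 counts also in SsA 2 the groups overlapped. Of the summed FPKM of EGR1 to EGR4, EGR1 made up 91.4 ± 12.5% in DMSO and 97.2 ± 0.757% after SsA (SD, n = 3), as that sum went from 0.557 ± 0.141 to 10.6 ± 3.49.

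NR4A1 (NUR77), an orphan receptor induced by growth factors and by gluconeogenic hormones in liver, was expressed in both groups and higher after SsA. It lies at chr12:52022832-52059507 (plus strand). It had 51.1, 49.8 and 46.7 CPM in DMSO 1, 2 and 3, and 111, 135 and 83.1 CPM in SsA 1, 2 and 3. The DMSO libraries agreed closely, and the lowest SsA library was well above them. The means were 49.2 ± 2.29 and 109.9 ± 26.1 CPM (SD, n = 3), and the log2 fold change was 1.16 ± 0.17 (SE). NR4A1 overlaps AC025259.3 on the opposite strand.

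NR4A2 (NURR1), the family member known from dopamine neurons, lies at chr2:156324437-156332721 (minus strand). Its level was 9.45, 9.28 and 13.8 CPM in DMSO 1, 2 and 3 and 28.2, 22.6 and 18.3 CPM in SsA 1, 2 and 3. The groups did not overlap, though DMSO 3 and SsA 3 came close. The log2 fold change was 1.09 ± 0.21 (SE). NR4A3 (NOR1, chr9:99821855-99866891, plus strand), the third receptor of the family, had 25.1, 25.4 and 33.4 CPM in DMSO and 39.5, 39.2 and 30.4 CPM in SsA. SsA 3 lay below DMSO 3, so the groups overlapped, and the log2 fold change was 0.38 ± 0.15 (SE).

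The summed NR4A level was nearly the same in the 3 DMSO libraries and wider after SsA. The sum of the 3 genes was 12.7 ± 0.146 FPKM in DMSO and 21.8 ± 4.22 FPKM after SsA (SD, n = 3). The share of NR4A1 in it was 48.8 ± 5.74% in DMSO and 56.3 ± 4.07% after SsA. NR4A3 made up 31.7 ± 2.80% and 21.8 ± 1.39%, and its share was lower in each SsA library than in each DMSO library. NR4A2 made up 19.5 ± 2.96% and 21.9 ± 3.08%.

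KLF2, a factor known from flow-exposed endothelium and quiescent T cells, was low in both groups and higher after SsA. It lies at chr19:16324826-16328685 (plus strand). It had 0.495, 0.430 and 0.813 CPM in DMSO 1, 2 and 3 and 3.51, 3.68 and 2.91 CPM in SsA 1, 2 and 3. Each SsA library was over 3 times above each DMSO library. The ratio of the summed counts (120 against 621) was 6.08, with an exact 95% counting interval of 4.99 to 7.45. Its log2 fold change in the fit without the expression filter was 2.60 ± 0.30 (SE). The summed level of the 4 endothelial markers with a row was 0.901 to 0.977 FPKM in DMSO and 0.468 to 0.545 FPKM after SsA. Their part in the KLF2 values was not tested.

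KLF4, a factor of epithelial differentiation and of pluripotency, hardly differed. It lies at chr9:107484852-107490482 (minus strand). It had 4.48, 4.97 and 4.28 CPM in DMSO 1, 2 and 3 and 6.45, 5.04 and 4.71 CPM in SsA 1, 2 and 3, and SsA 3 lay between the DMSO libraries. The log2 fold change was 0.24 ± 0.18 (SE), and without DMSO 3 and SsA 1 it was 0.02. KLF6, a factor induced in injured liver and stellate cells, lies at chr10:3775996-3785209 (minus strand). It had 20.3, 19.9 and 23.3 CPM in DMSO and 28.2, 32.2 and 21.4 CPM in SsA. SsA 3 was below DMSO 3, and the log2 fold change was 0.37 ± 0.16 (SE).

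KLF10, also called TIEG1 and known as an early target of TGF-β, was the only one of the 10 with a lower mean after SsA. It had 49.2, 45.0 and 71.6 CPM in DMSO 1, 2 and 3 and 51.9, 39.0 and 37.4 CPM in SsA 1, 2 and 3. DMSO 3 and SsA 1 were the high libraries of their groups, and SsA 1 lay above DMSO 1 and 2. The log2 fold change was -0.37 ± 0.20 (SE) and was not called. In a fit chosen after seeing the data, without DMSO 3 and SsA 1, it was -0.33 ± 0.06 (SE). As that fit leaves out the high libraries, nothing is read from its smaller error. The share of KLF10 in the summed FPKM of the 4 KLF genes was 74.3 ± 3.52% in DMSO and 61.1 ± 4.22% after SsA (SD, n = 3). KLF6 made up 18.1 ± 1.99% and 24.3 ± 4.02%, KLF4 6.65 ± 1.68% and 8.01 ± 0.399%, and KLF2 1.03 ± 0.138% and 6.56 ± 0.669%.

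The order of the levels per length changed chiefly through EGR1. In DMSO the order of mean FPKM was KLF10 (13.1 ± 2.17), NR4A1 (6.20 ± 0.791), NR4A3 (4.03 ± 0.310), KLF6 (3.14 ± 0.0266), NR4A2 (2.47 ± 0.348), KLF4 (1.15 ± 0.171), EGR1 (0.521 ± 0.187), KLF2 (0.184 ± 0.0467), EGR2 (0.0353 ± 0.0496) and EGR3 (0.00151 ± 0.00262; SD, n = 3). Neighbours in that order did not overlap between libraries, except EGR2 and EGR3. After SsA the order was NR4A1 (12.3 ± 3.20), EGR1 (10.4 ± 3.46), KLF10 (9.10 ± 1.05), NR4A2 (4.71 ± 0.754), NR4A3 (4.71 ± 0.617), KLF6 (3.64 ± 0.787), KLF4 (1.19 ± 0.124), KLF2 (0.976 ± 0.126), EGR2 (0.212 ± 0.0161) and EGR3 (0.0491 ± 0.0344). EGR1 thus moved from the seventh place to the second. After SsA, the FPKM ranges of NR4A1, EGR1 and KLF10 overlapped, as did those of NR4A2, NR4A3 and KLF6 and those of KLF4 and KLF2, so the order within these sets was not resolved.

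**Figure D2:**
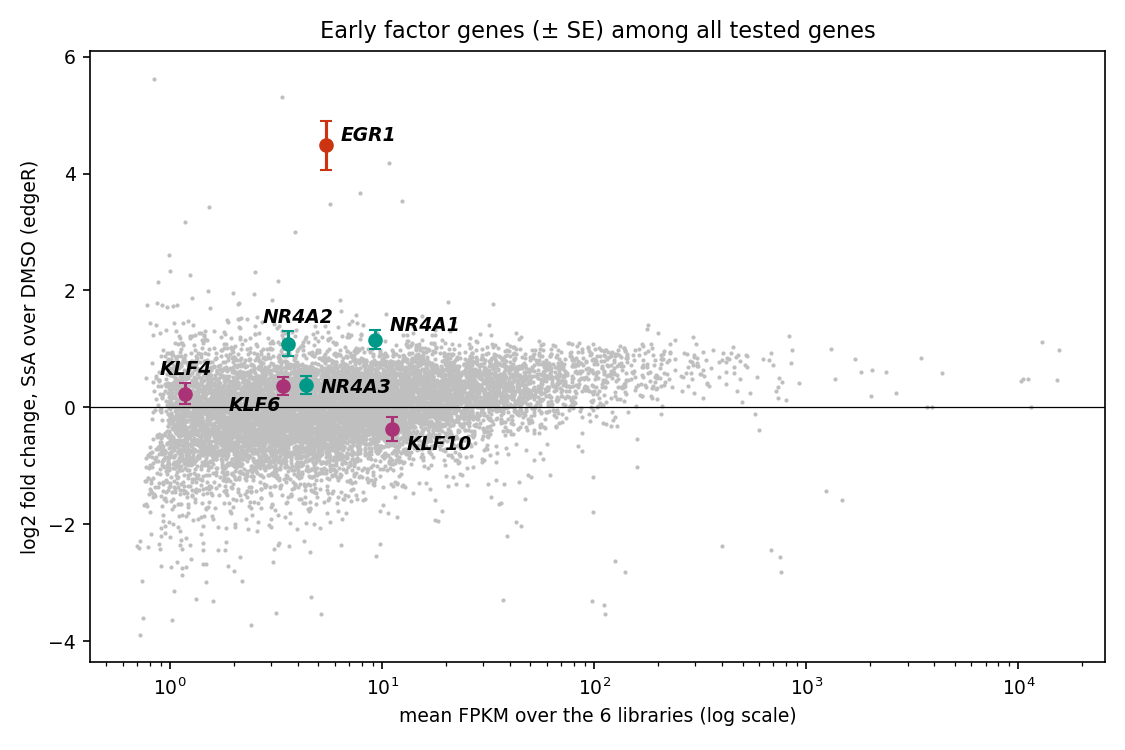
Log2 fold change of SsA over DMSO from edgeR (y axis) against mean FPKM over the 6 libraries (x axis, log scale). Grey points are the 11427 tested genes, and coloured points with SE bars the 7 tested early factor genes: EGR1 lies at 4.49, NR4A1 and NR4A2 near 1, and the other 4 between -0.37 and 0.38.

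The SsA libraries ranked alike in most of the 10 genes. SsA 3 was the lowest of the 3 SsA libraries in 10 of 10 genes, against 29.1% of all tested genes, and the highest was SsA 1 in 7 and SsA 2 in 3. SsA 2 and SsA 3, which had similar mitochondrial shares, can be compared directly: the ratio of SsA 2 to SsA 3 was above 1 in 10 of 10 genes and in 51.4% of all tested genes. Its median was 1.29 over the 7 tested early factor genes and 1.003 over all tested genes. For NR4A1 the ratio was 1.63, and 1.21% of tested genes had one as large. In DMSO, replicate 3 was the highest library in 6 of the 10 genes and in 42.5% of all tested genes. These orders were noticed in the values and carry no test.

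EGR1, NR4A1 and NR4A2 were higher after SsA both between the libraries of high mitochondrial share and among the other 4. The log2 ratio of SsA 1 to DMSO 3 was 4.51 for EGR1, 1.25 for NR4A1 and 1.03 for NR4A2. In the other 4 libraries the log2 fold changes were 4.41 ± 0.32, 1.09 ± 0.18 and 1.10 ± 0.13 (SE, edgeR). KLF2, under the expression filter, differed less between SsA 1 and DMSO 3 (2.11) than in the other 4 libraries (2.86 ± 0.28).

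Fold changes in this comparison ran with transcript length. Across 10040 tested coding genes, which are not independent replicates, the log2 fold change and the length of the longest GENCODE 29 transcript had a Spearman correlation of -0.72. Each early factor gene was therefore set beside coding genes whose length was within 0.25 of its own on the log2 scale. EGR1 (3138 nt) had 2065 such genes, with quartiles of -0.16 and 0.25, and lay far above them. NR4A1 (4837 nt), at 1.16, was above quartiles of -0.47 and 0.02. For NR4A2 (3472 nt) the quartiles were -0.22 and 0.19. NR4A3 (5706 nt) and KLF6 (4656 nt) were also above the upper quartiles of their like-length genes, -0.08 and 0.04, as were EGR2, EGR3 and KLF2. KLF4 (2813 nt) lay between its quartiles, and KLF10 (3659 nt), at -0.37, was below its lower quartile of -0.26. With a length offset in the fit, the log2 fold change was 0.73 for NR4A3 and 0.58 for KLF6. Both were called higher by edgeR with the offset, beside 1793 of 11382 genes, and were not called without it. Because the early factor genes were chosen on this contrast, these calls describe the processing and carry no test.

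**Figure D3:**
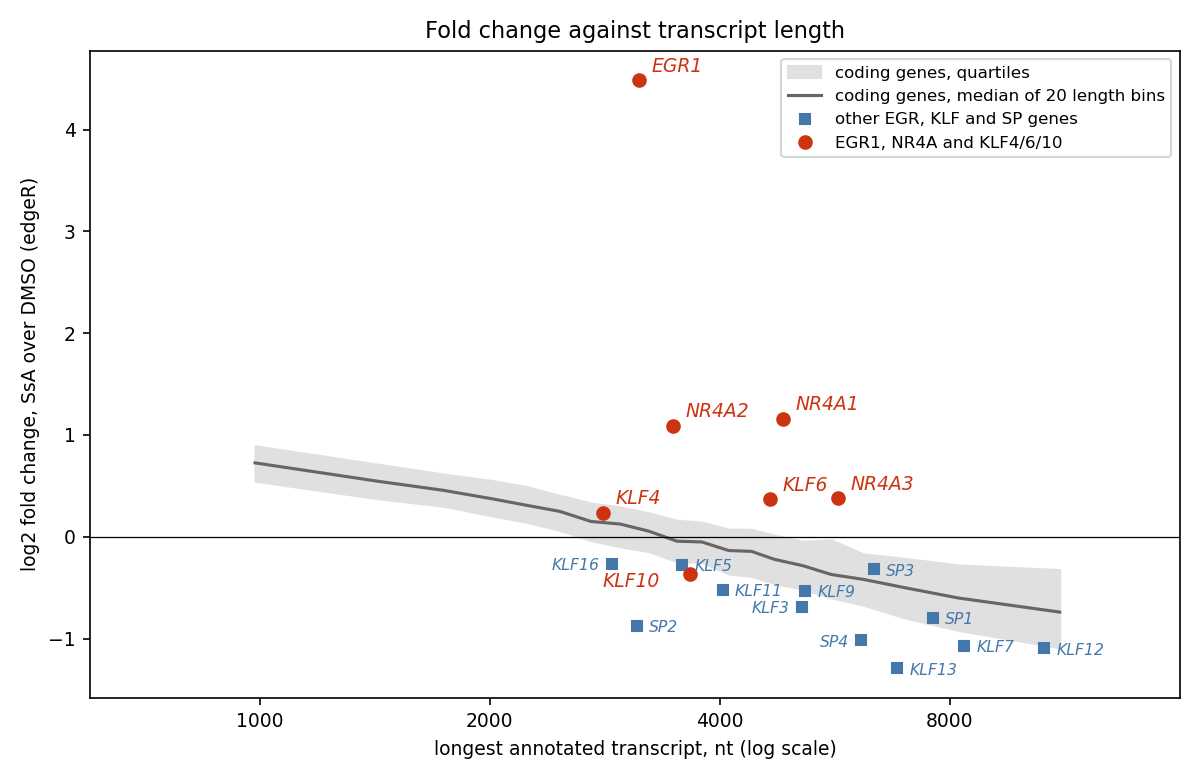
Log2 fold change of SsA over DMSO (y axis, edgeR) against the longest annotated transcript (x axis, nt, log scale). The line and band are the median and quartiles of coding genes in 20 length bins. EGR1 and the NR4A genes lie above the band. Of the 12 tested relatives (squares), all KLF or SP genes, 10 lie below the lower quartile of genes of like length.

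Most other tested KLF and SP genes were lower after SsA. Of 25 listed relatives of the EGR and KLF families 22 had a row and 12 were tested. Of these 9 were called lower and 0 higher by edgeR, with a median log2 fold change of -0.74. Among all tested genes 27.9% and 25.9% were called lower and higher. Here and in the lists below, up to 4 called genes of smallest p are named. As these were picked by p on this contrast, their adjusted p-values only describe the top of each list. KLF13, a widely expressed factor known from T cells, went from 108, 114 and 103 CPM in DMSO to 44.8, 43.6 and 43.8 CPM after SsA (a log2 fold change of -1.29 with an SE of 0.06, adjusted p = 4.9e-05 by edgeR). The libraries of a group lay close together and the groups far apart. KLF12 had a log2 fold change of -1.10 ± 0.12 (edgeR adjusted p = 0.000568), KLF7 of -1.07 ± 0.14 (edgeR adjusted p = 0.00101) and KLF3, a CtBP-binding repressor, of -0.69 ± 0.10 (edgeR adjusted p = 0.00181). Their transcripts are long, 5122 to 10637 nt for these 4 genes. Coding genes of like length had medians whose own median, over the 12 relatives, was -0.34. With the length offset 6 of the 12 were called lower and 0 higher, beside 1737 and 1793 of 11382 genes. KLF13 was then at -0.84 and KLF12 at -0.38.

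Among the listed cofactor genes of these families, the corepressor gene NAB2 fell. NAB2, which binds EGR factors and is itself a known EGR1 target, went from 29.3, 28.6 and 22.8 CPM in DMSO 1, 2 and 3 to 10.3, 14.8 and 14.1 CPM in SsA 1, 2 and 3. The groups did not overlap, with a log2 fold change of -1.04 ± 0.16 (SE; adjusted p = 0.00214 by edgeR). With the length offset it was -1.20. Its paralogue NAB1 had 74.7 ± 1.75 and 67.9 ± 2.19 CPM (SD, n = 3) and did not pass (a log2 fold change of -0.14, adjusted p = 0.0875 by edgeR). RXRA, the retinoid receptor that pairs with NR4A1 and NR4A2, fell by 0.64 ± 0.10 in log2 units (edgeR adjusted p = 0.00215), but not with the length offset (-0.29, edgeR adjusted p = 0.0922). SIN3A, a scaffold of histone deacetylase complexes, had a log2 fold change of -0.67 (edgeR adjusted p = 0.00557) and PARK7 of 0.82 (edgeR adjusted p = 0.0217). With the offset these were -0.22 and 0.26, and neither passed (edgeR adjusted p = 0.19 and 0.31). In all, 3 of the 8 cofactor genes tested were called lower and 1 higher, beside 27.9% and 25.9% of all tested genes, with a median log2 fold change of -0.07. With the length offset 1 was called lower and 1 higher, beside 1737 and 1793 of 11382 genes.

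Where called, genes for the factors that switch on EGR1 and its kin were mostly lower after SsA. Of 16 tested, 9 were called lower and 1 higher, beside 27.9% and 25.9% of all tested genes, and their median log2 fold change was -0.49. With the length offset 5 were called lower and 2 higher, beside 1737 and 1793 of 11382 genes. This list was not tested as a group. SRF, which binds the CArG boxes printed above, had 49.2 ± 7.02 CPM in DMSO and 44.7 ± 2.997 CPM after SsA (SD, n = 3) and did not pass (a log2 fold change of -0.14, adjusted p = 0.327 by edgeR). MRTFA, an actin-regulated partner of SRF, fell from 69.7 ± 6.06 to 33.2 ± 0.885 CPM (a log2 fold change of -1.07 with an SE of 0.08, adjusted p = 0.000148 by edgeR). The acetyltransferase genes CREBBP and EP300 had log2 fold changes of -1.98 ± 0.21 and -1.91 ± 0.28 (edgeR adjusted p = 0.000437 and 0.00159), and -1.25 each with the offset. MEF2D, a regulator of NR4A1 and KLF2, had one of -0.84 ± 0.13 (edgeR adjusted p = 0.00209). CREM, of the CREB family, was the gene called higher (0.48 ± 0.11, edgeR adjusted p = 0.0109) and was named after its values were seen. With the offset it was 0.22 and no longer passed (edgeR adjusted p = 0.162).

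Of 20 tested kinase genes of the ERK, ERK5, p38 and protein kinase A routes, 8 were called lower and 2 higher, beside 27.9% and 25.9% of all tested genes, with a median log2 fold change of -0.15. With the length offset 4 were called lower and 4 higher, beside 1737 and 1793 of 11382 genes. The ERK5 route kinases MAP3K2 and MAP3K3 fell by 0.82 ± 0.06 and 0.59 ± 0.06 in log2 units (SE; adjusted p = 0.00011 and 0.000523 by edgeR). With the offset MAP3K2 (10992 nt) was at -0.08 and did not pass (edgeR adjusted p = 0.323), and MAP3K3 was at -0.36. RPS6KA3 (RSK2) had a log2 fold change of -0.46 and, with the offset, of 0.10, which did not pass (edgeR adjusted p = 0.187). MAPKAPK2, the kinase below p38, had -0.46 and, with the offset, -0.56. MAP2K1 and MAP2K2, the kinases directly above ERK, were the genes called higher, by 0.38 ± 0.10 and 0.31 ± 0.05 (edgeR adjusted p = 0.0156 and 0.00311), and were named after their values were seen. These are transcript levels and do not measure kinase activity.

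Known EGR1 target genes were called in both directions, at a share near that of all tested genes. Of 14 listed 10 were tested, 2 were called higher and 3 lower, beside 25.9% and 27.9% of all tested genes. Their median log2 fold change was -0.06. GDF15, a stress cytokine gene, went from 4.39, 4.57 and 5.41 CPM to 12.3, 10.7 and 7.77 CPM (a log2 fold change of 1.10 with an SE of 0.20, adjusted p = 0.00392 by edgeR). SsA 3 was again the lowest SsA library, and with the length offset GDF15, whose transcript is 1200 nt, did not pass (0.58, edgeR adjusted p = 0.108). PDGFA had a log2 fold change of 0.49 (edgeR adjusted p = 0.03; 0.23 and edgeR adjusted p = 0.298 with the offset). FGF2 and NAB2 were called lower; with the offset FGF2 moved from -0.54 (edgeR adjusted p = 0.000715) to -0.09 (edgeR adjusted p = 0.347). VEGFA, named after its values were seen, was called lower (-0.28, edgeR adjusted p = 0.0403) and, with the offset, higher (0.51, edgeR adjusted p = 0.00613). Its transcript has 12167 nt.

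Of 11 listed NR4A targets, among them genes of gluconeogenesis and steroid synthesis, 5 had a row and 1 was tested. That gene, the muscle enolase ENO3, had 103, 101 and 83.7 CPM in DMSO and 134, 159 and 157 CPM in SsA 1, 2 and 3. It rose by 0.65 ± 0.11 in log2 units (SE; adjusted p = 0.00248 by edgeR) and did not pass with the length offset (0.19, edgeR adjusted p = 0.101). Of 12 listed KLF targets 7 were tested, of which 1 was called higher and 2 lower, beside 25.9% and 27.9% of all tested genes. Their median was 0.03 on the log2 scale. CDKN1C, a cell cycle inhibitor gene, was called higher (a log2 fold change of 0.78 with an SE of 0.13, adjusted p = 0.00277 by edgeR). The collagen gene COL1A1 and the TGF-β inhibitor gene SMAD7 were called lower, at -1.14 ± 0.15 and -0.81 ± 0.13 (edgeR adjusted p = 0.00114 and 0.00247). These 3 calls held with the length offset. COL1A1 is also among the fibroblast markers, whose summed level was 34.4 to 45.5 FPKM in DMSO and 29.1 to 35.6 FPKM after SsA. The endothelial KLF2 target THBD stayed under the filter.

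The sign of each of the 10 differences was the same under every alternative tried, and the sizes moved most in the genes of low counts. The alternatives use the same libraries and the contrast on which the genes were chosen, so the calls below describe processing and carry no test. EGR2, EGR3 and KLF2 take their values from fits without the expression filter. EGR1, NR4A1, NR4A2 and KLF2 were called higher in all of their 16, 16, 15 and 14 alternatives. EGR2 was called higher in 4 of 14 and EGR3 in 6 of 14. NR4A3 was called higher in 5 of 15 (among them DESeq2 and the fits without DMSO 3 or without SsA 3), KLF6 in 2 of 15 (the length offset and the fit without SsA 3), and KLF4 in 0 of 15. KLF10 was called lower in 4 of 16. These are the deposited FPKM with limma at both pseudocounts, counts scaled to library totals, and the fit without DMSO 3 and SsA 1. On the FPKM scale (pseudocount 1) the median of all tested genes was -0.11, with 914 called higher and 3723 lower by limma, against 2956 and 3190 by edgeR on counts. With counts scaled to library totals the median was -0.12 and 1272 and 3872 were called.

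**Figure D4:**
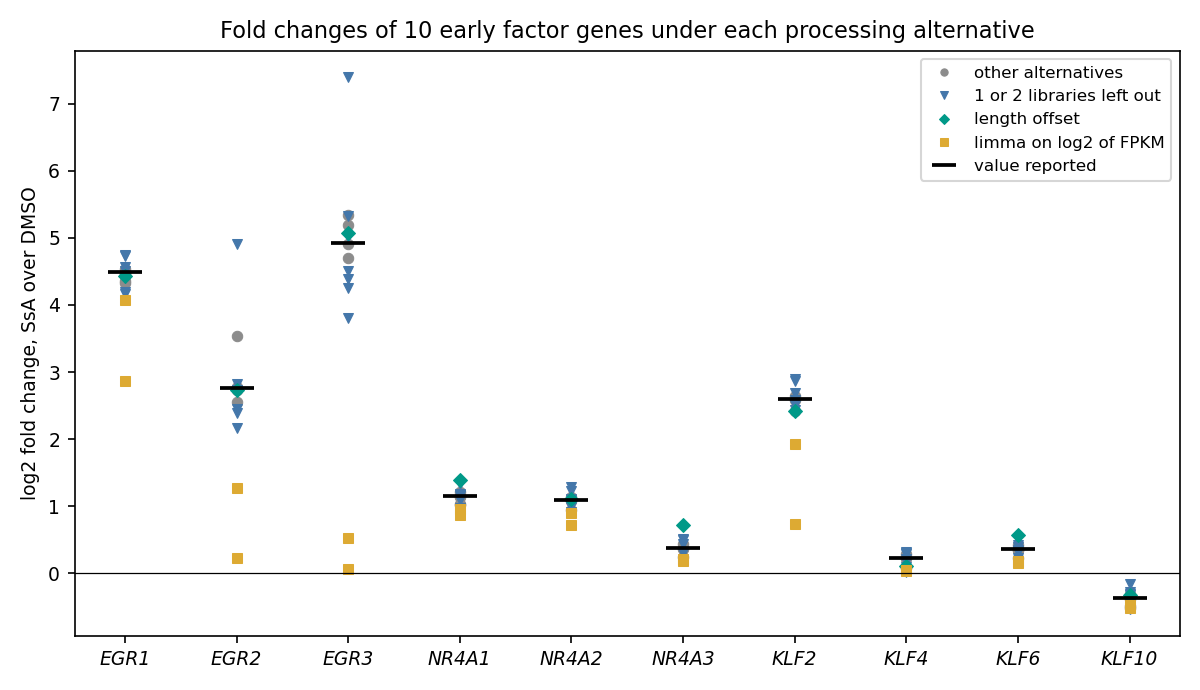
Log2 fold change of SsA over DMSO (y axis) of the 10 genes (x axis) in the value reported (black bars) and under each alternative (points). EGR1, NR4A1, NR4A2 and KLF2 stay above 0.7 throughout, KLF10 stays below 0, and EGR2 and EGR3, with few counts, spread widest.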

How the data were processed

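Polyadenylated RNA was sequenced as strand-marking dUTP libraries, per the labels' protocols. The submitters' processing notes name cutadapt 1.9, HISAT2 2.0.4, StringTie 1.3.4d and GRCh38, while the sources used here do not give the annotation release, counting step or strand setting. Per gene and library, the deposited table gives a whole-number count, taken as not normalised by the authors, and FPKM values, which the authors divided by gene length and library size, per the file headers. Poly(A) selection leaves out RNA without a tail and, where RNA is broken, favours 3′ ends; its part in the length trend was not tested.

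Counts were scaled by TMM and fitted with edgeR 4.0.16 (R 4.3.3, two-sided quasi-likelihood test, Benjamini-Hochberg adjustment over 11427 genes, threshold 0.05). The expression filter asked for 1 FPKM or more in 3 or more libraries. EGR2, EGR3 and KLF2 did not pass and take their values from the same fit without the filter. SEs are log2 fold change over the root of the F statistic. The common biological coefficient of variation was 15.3%. Lengths are those of the longest GENCODE 29 transcript (28679 rows matched), and the length offset is a loess per library. Alternatives used DESeq2 1.42.0, limma 3.58.1 on log2(FPKM + 1) and log2(FPKM + 0.1), other filters and scalings, a replicate block, and fits without single libraries. The edgeR script was tested on simulated data.

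The members and lists were chosen with earlier results of these data known. Named genes are the 10 members, up to 4 called genes of smallest p per other list, NAB1, NAB2, SRF and RXRA, and the 5 genes most correlated with the members. The list genes picked by p were picked on this contrast, so their adjusted p-values are a description. CREM, MAP2K1, MAP2K2, VEGFA, ELK4, MAP2K6, EGR4 and THBD were named after their values were seen. Lists were described by counts and medians only.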

Additional observations from a re-analysis of the deposited data

How the results depend on the processing

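Counts of called genes were taken over both directions for the lists, and apart for higher and lower in the 10 early factor genes. Under the alternatives 125 of these counts kept within 1.5 times their value, 8 rose above and 11 fell below that. Of the 10 early factor genes 0 changed sign. Such totals do not show single calls that turned: with the length offset VEGFA went from -0.28 to 0.51, ELK4 from -0.37 to 0.33 and MAP2K6 from -0.26 to 0.59, each called lower and then higher by edgeR. ELK4 and MAP2K6 were named after their values were seen, and the kinase calls went from 2 higher and 8 lower to 4 and 4. Of the 10 genes, 3 of 7 tested were called higher, and 5 of 10 without the expression filter, where EGR3 and KLF2 were added. In that fit 2930 of 29435 genes were called higher. With the length offset 5 of 7 were, beside 1793 of 11382 genes. The number was 3 to 5 when single libraries were left out. It was 5 without SsA 3, where 2025 of 11427 genes were called higher. The number called lower (0) was 1, KLF10, with limma on log2(FPKM + 1) and on log2(FPKM + 0.1) and with counts scaled to totals. It was also 1, KLF10, without both DMSO 3 and SsA 1, an alternative chosen after seeing the data. In these settings 3699 to 3946 of 11427 genes were called lower. With single libraries left out, the number of the 10 genes called lower was 0 to 0. Among genes of a mean FPKM of at least 5, fewer genes were tested: 4 relatives of the EGR and KLF families, 5 upstream factors and 3 EGR1 targets were called in place of 9, 10 and 5. With the length offset 2 cofactors were called in place of 4, and the NR4A target ENO3 was not called (0), as with limma at both pseudocounts. KLF targets numbered 3 to 5 with single libraries left out, with 5 without SsA 3, and EGR1 targets 3 to 5, with 3 without DMSO 3, without SsA 2 or without SsA 3. The cause was not tested.

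Deviations of same-numbered libraries from their group means correlated at -0.34, 0.29 and -0.35, so the numbers were not taken as pairs. In a replicate block EGR1 targets numbered 3, and 3 of the 10 genes were called higher. SsA 1 correlated best with DMSO 3 (0.55). Over all tested genes the block called 2074 higher and 2542 lower, the length offset 1793 and 1737, and the filter at a mean FPKM of 5 1579 and 1811, against 2956 and 3190. EGR2 and EGR3 rest on few counts in DMSO, and their log2 fold changes ran from 0.23 to 4.90 and from 0.07 to 7.39.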

Other observations

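The 7 tested early factor genes had a mean standardised log2 CPM of -0.74, -0.77 and -0.15 in DMSO 1, 2 and 3 and of 1.07, 0.71 and -0.12 in SsA 1, 2 and 3, so SsA 3 was close to DMSO 3 in this mean. Of 9300 other tested genes whose mean FPKM reached 2, those whose log2 CPM followed it most closely over the 6 libraries were BCKDHA (Pearson r = 0.997), XXYLT1 (0.995), DCPS (0.995), SRRD (0.994) and ELFN1-AS1 (0.987). Their log2 fold changes, in the same order, were 0.34 ± 0.11, 0.25 ± 0.09, 0.21 ± 0.08, 0.07 ± 0.07 and 0.53 ± 0.19 (SE). Such an r compares the shape over the libraries and not the size of the difference. The 6 points share their libraries, and 1 in 20 of the compared genes had an r of at least 0.879. BCKDHA, a subunit gene of the branched-chain keto acid dehydrogenase, had 34.3, 34.4 and 39.3 CPM in DMSO 1, 2 and 3 and 51.0, 46.0 and 39.96 CPM in SsA 1, 2 and 3.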
